A study of Mus musculus with 6 samples.

Results

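Rab GTPases other than those of granule exocytosis were examined in pancreatic islets from obese mice with and without Ern1 in their endothelial cells. The genes were taken by symbol, as every row named Rab with a number and at most a letter and a further digit, without Rab3a, Rab3b, Rab3c, Rab3d, Rab27a and Rab27b. This gave 42 genes of the 11106 in the table, and all 42 had enough counts to be tested. The rule reads symbols alone, though it was set with earlier results of these data known. Role lists with 54 Rab symbols sort them by membrane, and 12 of those symbols were not analysed here. The study asked how IRE1α, the endoplasmic reticulum stress sensor that Ern1 encodes, acts in vessel cells when nutrition is in excess, and compared islet RNA of 3 knockout and 3 floxed male mice. Knockout mice (numbers 11, 12 and 13) carried the floxed Ern1 gene and a tamoxifen-inducible Cre (CreERT2) driven by VE-cadherin regulatory DNA, which targets endothelial cells. Floxed mice (8, 18 and 19) were littermates with the floxed gene and are described without the Cre. Both groups had tamoxifen at 4 weeks of age (2 mg on each of 5 days) and 16 weeks of high fat feeding (60% fat by energy) from 8 weeks of age. Each library is whole islets of 1 numbered mouse, so cells without the Cre also gave RNA.

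Rab proteins are small GTPases that mark membranes. A Rab is loaded with GTP by a guanine nucleotide exchange factor (GEF), recruits effectors such as tethers and motor adaptors, and is switched off by a GTPase-activating protein (GAP). Prenyl groups added by Rab geranylgeranyl transferase hold it on the membrane, and GDP dissociation inhibitors carry it back through the cytosol. In islets this machinery moves proinsulin from the endoplasmic reticulum through the Golgi, sorts endocytosed receptors and feeds lysosomes, while Rab3 and Rab27 proteins act on the granule itself.

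By edgeR the 4 Rab genes with the smallest unadjusted p were Rab2b, Rab8a, Rab20 and Rab5a. Their promoters are shown for that rank alone, and none of the 4 had an edgeR adjusted p below 0.05 with all 6 libraries. The letters are the 250 bases before the annotated start, 5′ to 3′ on the gene's strand, from RefSeq on GRCm38.p6. Capitals mark matches on either strand to 1 of 6 motifs. The E-box was searched as CACGTG, the CCAAT box by those letters, and the AP-1 site as TGANTCA. The cAMP response element was searched as TGACGTCA and the unfolded protein response element as TGACGTGG. The ER stress response element, which contains a CCAAT box, was searched in its full spaced form. The Rab2b stretch is chr14:52279396-52279645 on the minus strand.
Rab2b: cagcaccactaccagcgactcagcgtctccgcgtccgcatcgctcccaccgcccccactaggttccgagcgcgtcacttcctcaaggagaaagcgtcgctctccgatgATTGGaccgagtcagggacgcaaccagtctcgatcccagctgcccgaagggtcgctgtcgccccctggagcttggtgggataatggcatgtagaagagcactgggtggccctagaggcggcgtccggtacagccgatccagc
The Rab8a stretch is chr8:72160950-72161199 on the plus strand.
Rab8a: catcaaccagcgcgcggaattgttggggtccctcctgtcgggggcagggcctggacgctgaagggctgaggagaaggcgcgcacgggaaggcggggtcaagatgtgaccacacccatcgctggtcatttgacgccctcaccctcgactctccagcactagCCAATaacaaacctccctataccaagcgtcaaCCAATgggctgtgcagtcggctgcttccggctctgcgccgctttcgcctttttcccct
The Rab20 stretch is chr8:11478641-11478890 on the minus strand.
Rab20: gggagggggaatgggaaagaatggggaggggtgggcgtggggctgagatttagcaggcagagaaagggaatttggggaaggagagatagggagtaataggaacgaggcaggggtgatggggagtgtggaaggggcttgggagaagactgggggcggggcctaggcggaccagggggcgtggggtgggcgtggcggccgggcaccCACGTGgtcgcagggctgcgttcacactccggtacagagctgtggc
The Rab5a stretch is chr17:53478984-53479233 on the plus strand.
Rab5a: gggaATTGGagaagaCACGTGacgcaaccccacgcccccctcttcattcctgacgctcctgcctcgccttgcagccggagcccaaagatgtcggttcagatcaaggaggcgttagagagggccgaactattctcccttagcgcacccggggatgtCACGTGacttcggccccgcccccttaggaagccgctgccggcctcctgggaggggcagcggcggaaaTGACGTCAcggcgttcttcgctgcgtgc

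Rab2b held 1 inverted CCAAT box (ATTGG), Rab8a held 2 CCAAT boxes, and Rab20 held 1 E-box 46 bases before its start. Rab5a held 2 E-boxes, 1 inverted CCAAT box and 1 cAMP response element that begins 28 bases before the start. The table of promoters matched 36 of the 42 genes. A CCAAT box was found in 18 of these 36 (50%) and in 34.5% of all 27025 promoters of the same length. The E-box was found in 4 of the 36 genes, Rab5a, Rab20, Rab21 and Rab23 (11.1%, against 6.04% of all), and the cAMP response element in Rab5a and Rab25 (5.56%, against 1.6%). An AP-1 site was found in Rab34 (2.78%, against 6.85%). The unfolded protein response element and the ER stress response element were found in 0 of the 36, against 0.496% and 0.122% of all promoters. The 27025 promoters were not limited to genes tested in islets, as all the Rab genes were, so the shares compare unlike sets. These are matches of letters and do not show a site in use.

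Depth was even, with total counts from 18470720 to 18957444 per library, and the least counted Rab gene, Rab29, had between 19 and 42 counts. Ern1 itself ranged from 36.0 to 46.8 CPM (counts relative to the library total, scaled by TMM) in knockout and from 30.1 to 46.0 CPM in floxed islets (log2 ratio 0.05, edgeR adjusted p = 0.920). In whole islets this does not check the genotype, since the Cre acts in endothelial cells. Beta cell markers (10 of 10 listed genes in the table) held between 30.9% and 39.6% of counts in knockout and between 43.0% and 46.5% in floxed islets. Acinar markers (29 of 30 in the table, with Prss1 at 0 in 1 library) held from 14.01% to 19.7% in knockout and from 3.14% to 9.40% in floxed islets. Endothelial markers (17 of 20, none at 0, each with a negative log2 value) held from 0.0589% to 0.0614% in knockout and from 0.0587% to 0.0931% in floxed islets. Floxed 8 stood apart from the other floxed libraries. Its immediate early and heat shock genes (23 of 25, none at 0) held 1.46% of counts, against 0.285% and 0.273% in floxed 18 and 19 and from 2.15% to 2.26% in knockout islets. It also had the highest acinar share of its group, the highest alpha cell marker share (3.19%, against 1.91% and 1.74% in floxed 18 and 19) and the highest delta and PP marker share (1.10%, against 0.898% and 0.668%). Its endothelial share was 0.0587%, level with the knockout islets, against 0.0931% and 0.0844% in floxed 18 and 19. Ductal markers held from 0.0762% to 0.0949% in knockout and from 0.0530% to 0.0674% in floxed islets. Pericyte and smooth muscle markers held from 0.00915% to 0.0106% in knockout and from 0.0111% to 0.0158% in floxed islets. Values without floxed 8 are given where it moved a result. Floxed 8 was singled out after its values were seen, and these fits keep floxed 18 and 19 alone in their group. For a gene in which floxed 8 lay toward the knockout libraries, leaving it out enlarges the difference by construction. The adjustment shifts as well, since 14.3% of all genes passed without floxed 8, against 0.406% with all 6 libraries. An adjusted p can then fall while the unadjusted p of the gene stays the same. An adjusted p from these fits is thus a description and not further support. The part of these cell types and of the immediate early genes in the results was not tested. In whole islets, fewer cells of a type and less RNA per cell cannot be told apart.

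The 42 Rab genes together held from 0.191% to 0.208% of counts in knockout and from 0.207% to 0.228% in floxed islets. Scaled by TMM, their summed level was 2042 ± 34.4 CPM (SD, n = 3) with the knockout and 2109 ± 84.7 CPM (SD, n = 3) without it, and the groups overlapped. Levels between genes were compared per length, as CPM per kilobase of merged exons. Rab7, which drives fusion of late endosomes with lysosomes, was highest at 105 CPM per kilobase over all 6 libraries. Rab2a, which acts between the endoplasmic reticulum and the Golgi, followed at 85.8. The Rab1 pair, required for transport from the endoplasmic reticulum to the Golgi, stood at 46.4 (Rab1a) and 45.9 (Rab1b) CPM per kilobase. The lowest were Rab29 at 0.980 and Rab26 at 0.754 CPM per kilobase. Mouse to mouse spread was small for most, with a median coefficient of variation of 6.67% in knockout and 7.87% in floxed islets. The widest in knockout islets were those of Rab26 (34.6%), Rab29 (30.9%) and Rab19 (28.5%). In floxed islets the widest were those of Rab20 (37.9%) and Rab6b (21.2%).

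**Figure D1:**
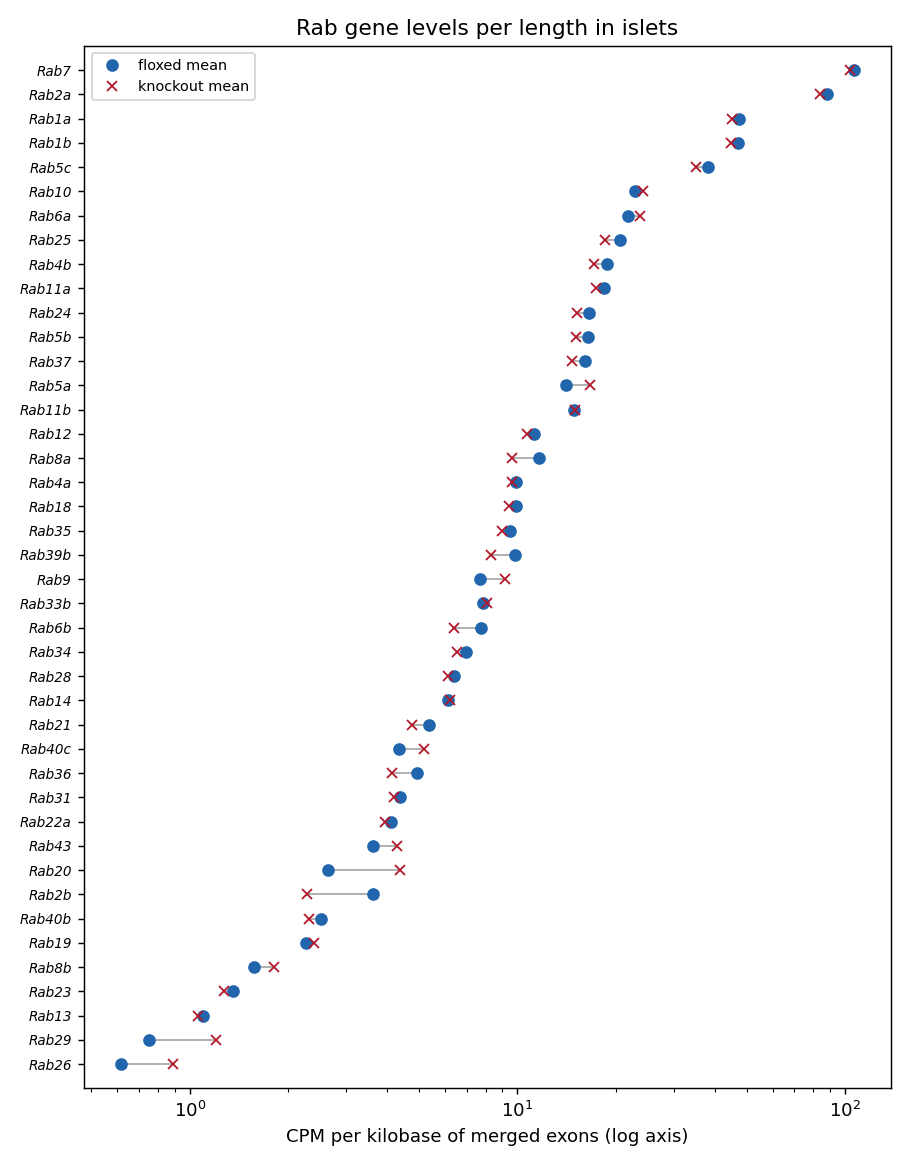
Mean level of each of the 42 Rab genes in floxed (blue circles) and knockout (red crosses) islets, in CPM per kilobase of merged exons on a log axis, n = 3 mice each. Rab7 and Rab2a head the order and Rab29 and Rab26 end it, and most group means lie close together.

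With all 6 libraries 0 of the 42 Rab genes passed the threshold, an edgeR quasi-likelihood p of 0.05 after Benjamini-Hochberg adjustment across the 11080 genes tested. Of all genes, 0.406% passed. By other tools the count was 0 with limma-voom (also 0.406% of all genes), 1 with DESeq2 (Rab2b, against 5.09% of all genes) and 5 with limma-voom and quality weights (against 15.1%). At an unadjusted edgeR p below 0.05 there were 5 members (11.9%, all genes 17.9%). The groups did not overlap in 9 members (21.4%), 3 higher and 6 lower in knockout islets, where all genes gave 24.3% (14.1% higher and 10.2% lower). Those higher were Rab5a, Rab29 and Rab40c, and those lower were Rab2b, Rab8a, Rab39b, Rab5b, Rab18 and Rab2a. The median log2 fold change was -0.069 over the 42 genes and -0.0029 over all genes, with 28 of 42 members negative (66.7%) against 50.5% of all genes. Scaled by library totals, 33 of 42 were negative, but the median of all genes was then lower too, at -0.092. By share of calls and of separate groups the Rab genes were thus no more often different than genes at large. In 29 of the 42 the 95% interval of the log2 fold change lay between -0.5 and 0.5.

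**Figure D2:**
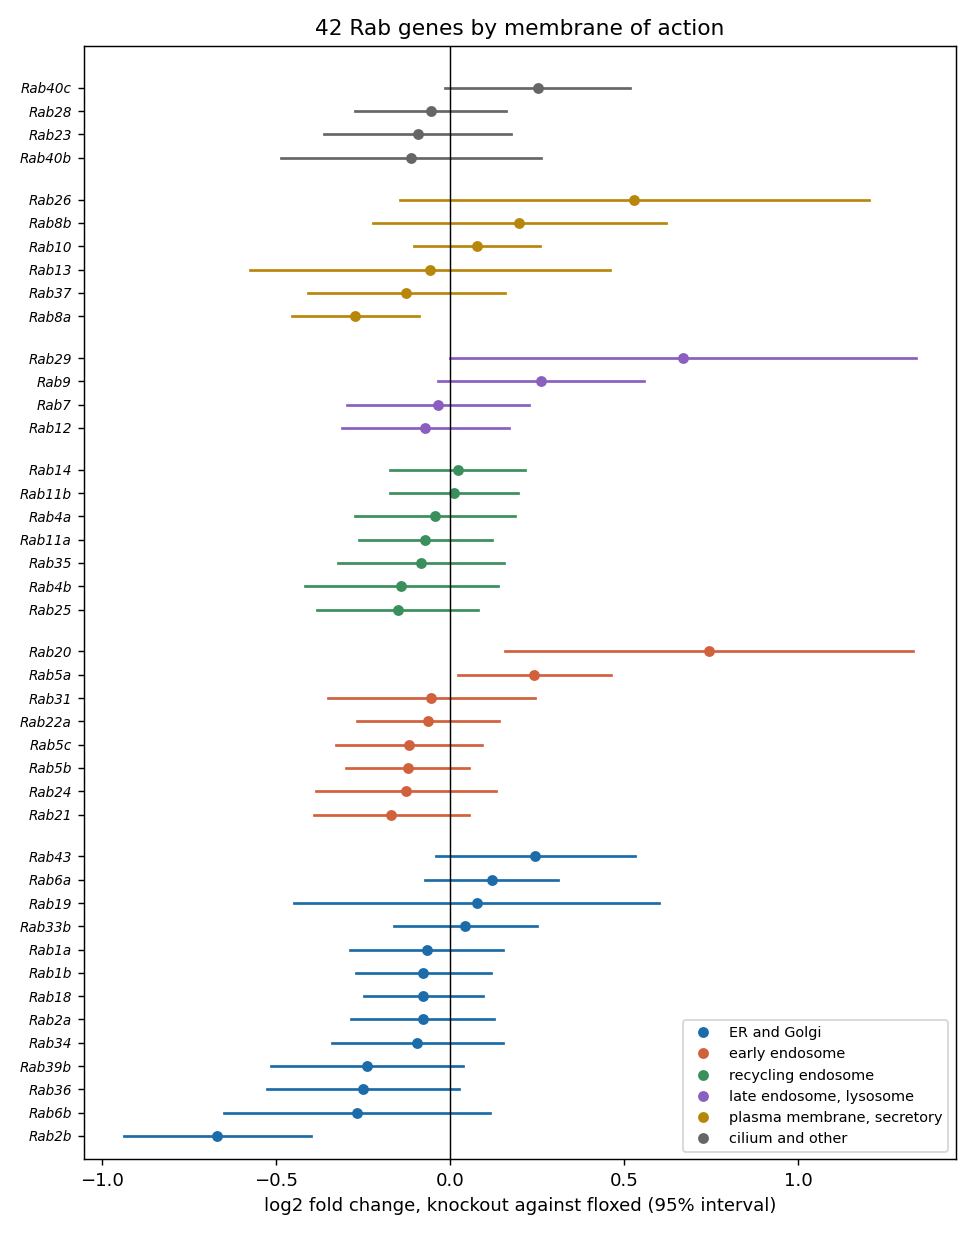
Log2 fold change of each Rab gene, knockout against floxed, with its 95% interval from the edgeR fit, grouped and coloured by the membrane on which the protein acts (n = 3 mice each). Rab2b lies farthest to the left at -0.67 and Rab20 farthest to the right at 0.74, and most intervals cross 0.

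Without floxed 8, 5 of the 42 genes passed (11.9%, against 14.3% of all genes). Rab20, Rab5a and Rab9 rose (all genes 8.59%) and Rab2b and Rab8a fell (all genes 5.70%) in knockout islets. The same 5 genes passed with limma-voom and quality weights. That fit lets libraries count unequally, and the weight of each library is not given here, so it is not taken as separate support. Without both floxed 8 and knockout 12 the 3 that passed were Rab20, Rab2b and Rab5a (7.14%, against 12.6% of all genes). Leaving out knockout 11, 12 or 13 gave 0 Rab genes each time (all genes 0%, 0.0722% and 0%), as did leaving out floxed 18 or 19 (0.162% and 0.144%). With an acinar or an immediate early covariate 0 passed (all genes 0% and 0.903%). Neither covariate overlapped between the groups. The acinar mean was 10.1 to 10.4 log2 CPM in knockout and 7.58 to 9.32 in floxed islets, and the immediate early mean 8.24 to 8.40 and 5.19 to 7.81. These fits can therefore hardly tell the covariate from the group. The SE of Rab2b, 0.12 without a covariate, was 0.24 with the acinar and 0.18 with the immediate early one. Floxed 8 was nearer to the knockout mean than to the mean of floxed 18 and 19 in 18 of the 42 genes. This was not counted over all genes, so whether it is particular to the Rab genes cannot be said.

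Rabs of the endoplasmic reticulum and Golgi made up 13 of the 42 genes, with 9 negative values and a median log2 fold change of -0.077. Rab2b, the less abundant relative of Rab2a in these islets, had the smallest p of all members. It stood at 10.1, 10.2 and 8.35 CPM in knockout mice 11, 12 and 13, against 15.4, 14.6 and 15.4 CPM in floxed mice 8, 18 and 19. All 3 knockout libraries were below all 3 floxed libraries, and floxed 8 stood with its own group. The log2 ratio of knockout to floxed was -0.67 (SE 0.12), its 95% interval ran from -0.94 to -0.40, and the floxed mean was 1.59-fold above the knockout mean. Its unadjusted p was 3.3e-04 and its edgeR adjusted p 0.0595, just short of the threshold. Over the 18 alternatives the adjusted p ran from 0.00128 to 0.441 and passed in 4, and the log2 fold change stayed between -0.76 and -0.59. Without floxed 8 Rab2b fell by 0.66 on the log2 scale (edgeR adjusted p = 0.00677). Its unadjusted edgeR p was 3.3e-04 there too, so the lower adjusted p reflects the other genes and not a stronger Rab2b result. With the acinar level as a covariate the value was -0.71 (adjusted p = 0.441).

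Rab2b lies on chromosome 14 from 52261759 to 52279395 on the minus strand (GRCm38). Of its merged exons, 64.0% are also exons of other genes, Gm43766 over 2469 bases and Tox4 over 195 bases, both on the opposite strand. Whether counting used strand is not stated, and reads of these genes cannot then be told apart from those of Rab2b. Tox4 stood at 59.8 ± 6.95 CPM (SD, n = 3) with the knockout and 51.9 ± 3.21 CPM (SD, n = 3) without it, the opposite direction (log2 fold change 0.20, edgeR adjusted p = 0.345). Gm43766 was not analysed here.

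Rab2a, the abundant partner, stood at 174, 175 and 185 CPM in knockout mice 11, 12 and 13, against 191, 187 and 186 CPM in floxed mice 8, 18 and 19. The groups did not overlap, yet the log2 fold change was only -0.078 with a SE of 0.091 (edgeR adjusted p = 0.699). Rab2b made up 5.47%, 5.48% and 4.31% of the summed CPM of the pair in knockout 11, 12 and 13 and 7.49%, 7.22% and 7.64% in floxed 8, 18 and 19. The share was lower in each knockout library than in any floxed library, by about the same margin with and without floxed 8.

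Rab6a and Rab6b direct retrograde traffic from the Golgi, and Rab6b is known as the form rich in neurons. Rab6b had 37.9, 30.7 and 28.4 CPM in knockout mice 11, 12 and 13, against 37.2, 31.6 and 47.8 CPM in floxed mice 8, 18 and 19. Floxed 19 was far above the rest and the groups overlapped (log2 ratio -0.27, SE 0.17, edgeR adjusted p = 0.448). Without floxed 19 the value was -0.091, and with the acinar covariate -0.49. Rab6a had 82.9, 87.2 and 93.6 CPM in the knockout mice, against 78.0, 83.9 and 80.8 CPM in the floxed mice, in the same order of mice, and also overlapped. Part of the exons of Rab6a (18.99%) are shared with Mrpl48 on the opposite strand.

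Rab36, a Golgi and late endosome Rab, and Rab39b, a Rab rich in neurons, leaned lower. Rab36 had 29.1, 21.4 and 26.5 CPM in knockout mice 11, 12 and 13, against 31.5, 31.5 and 28.6 CPM in floxed mice 8, 18 and 19, where knockout 11 was above floxed 19. Rab39b had 23.2, 32.02 and 29.4 CPM in the knockout mice, against 32.2, 34.6 and 33.1 CPM in the floxed mice, with no overlap but with knockout 12 next to floxed 8. Their log2 fold changes were -0.25 and -0.24, with SE of 0.12 for both and edgeR adjusted p of 0.321 and 0.344. Rab36 was -0.13 without knockout 12, and Rab39b was -0.12 without knockout 11. Rab43, a Golgi Rab, leaned the other way. It had 21.9, 24.4 and 24.98 CPM in the knockout mice, against 22.9, 16.8 and 20.6 CPM in the floxed mice, so floxed 8 lay above knockout 11 (log2 ratio 0.25, SE 0.13, edgeR adjusted p = 0.349). Without floxed 8 the value was 0.34 (edgeR adjusted p = 0.0687, alternatives 0.0687 to 0.934), and without floxed 18 it was 0.13. Its value was -0.21 with the acinar covariate and -0.030 with the immediate early covariate, and 75.4% of its exons are shared with a gene on the same strand, Gm45140. Rab18, known at lipid droplets and the endoplasmic reticulum, had 64.0, 65.8 and 63.7 CPM in the knockout mice, against 65.9, 69.0 and 69.2 CPM in the floxed mice, a narrow separation (log2 ratio -0.077, SE 0.076, edgeR adjusted p = 0.641). The other members of this group, Rab1a, Rab1b, Rab19, Rab33b and Rab34, had log2 fold changes between -0.094 (Rab34) and 0.077 (Rab19).

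**Figure D3:**
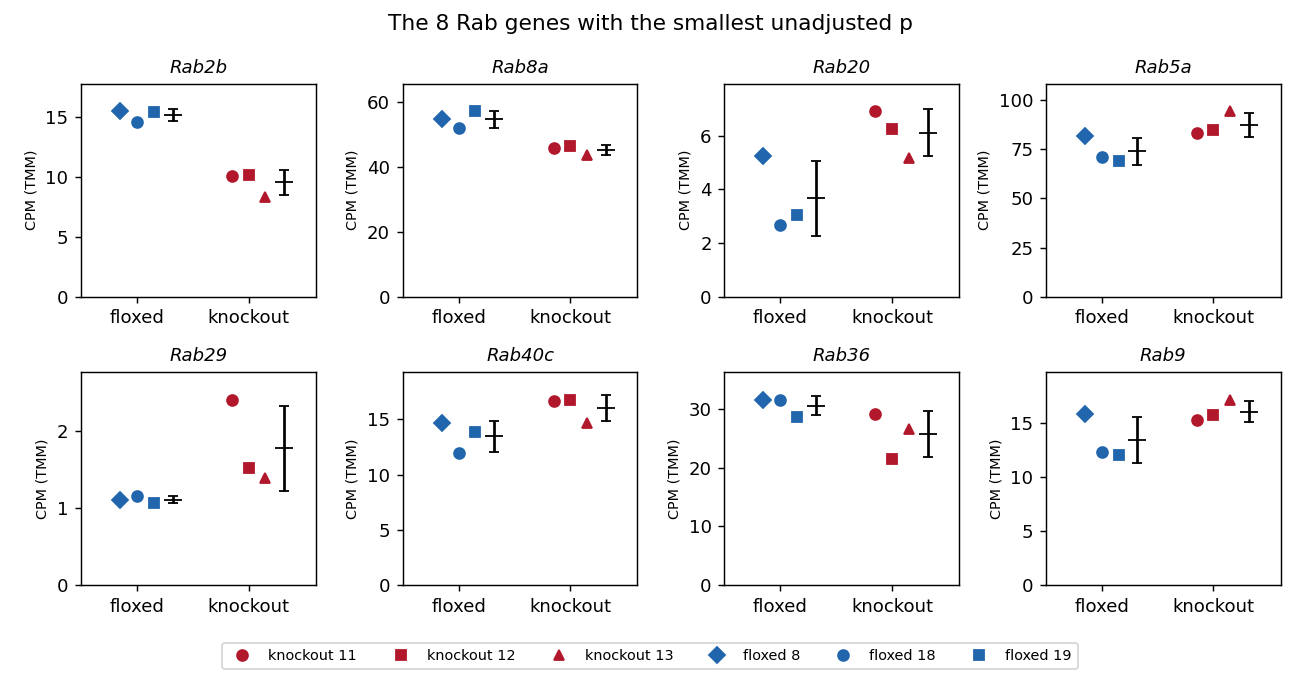
TMM-scaled CPM of the 8 Rab genes with the smallest unadjusted p in each library, floxed mice in blue and knockout mice in red, with the mean and SD of each group in black (n = 3 each). Rab2b, Rab8a and Rab29 are separate between the groups, Rab5a and Rab40c narrowly so, and floxed 8 (diamond) is the highest floxed mouse in Rab20, Rab5a, Rab40c and Rab9.

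Early endosome Rabs numbered 8, with 6 negative values, a median log2 fold change of -0.090 and the gene with the largest positive value. Rab20, known in phagosome maturation and as a hypoxia-inducible Rab, had 6.91, 6.24 and 5.17 CPM in knockout mice 11, 12 and 13, against 5.26, 2.69 and 3.05 CPM in floxed mice 8, 18 and 19. Knockout 13 was just below floxed 8, and the other 2 floxed libraries were far lower. The log2 ratio of knockout to floxed was 0.74 (SE 0.26) with a 95% interval from 0.16 to 1.33 (edgeR adjusted p = 0.186). Without floxed 8, the highest floxed library for this gene, Rab20 rose by 1.08 (adjusted p = 0.00512). The value was -0.038 with the acinar covariate and 0.047 with the immediate early covariate, and over the 18 alternatives the adjusted p ran from 0.00512 to 0.981. Rab20 lies on chromosome 8 from 11453390 to 11478640, and 25.6% of its exons are shared with E230013L22Rik on the opposite strand.

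Rab5a, Rab5b and Rab5c are close relatives that control fusion of early endosomes, and their values went different ways. Rab5a had 83.2, 84.9 and 94.3 CPM in knockout mice 11, 12 and 13, against 81.6, 71.3 and 68.9 CPM in floxed mice 8, 18 and 19. The groups did not overlap, but floxed 8 was close to the lowest knockout library. The log2 ratio of knockout to floxed was 0.24 (SE 0.097, edgeR adjusted p = 0.237, alternatives 0.0265 to 0.946). Without floxed 8 Rab5a rose by 0.31 (adjusted p = 0.0336), and with covariates the value was 0.046 (acinar) and 0.052 (immediate early). Rab5b had 62.1, 61.2 and 66.8 CPM in the knockout mice, against 68.8, 68.6 and 69.5 CPM in the floxed mice, which did not overlap (log2 ratio -0.12, SE 0.078, edgeR adjusted p = 0.458). Rab5c, the highest of the early endosome group per length at 36.6 CPM per kilobase, had 82.0, 76.5 and 72.4 CPM in the knockout mice, against 90.8, 81.6 and 78.2 CPM in the floxed mice, with overlap. Its log2 value of -0.12 was -0.059 without floxed 8, -0.22 with the acinar and -0.27 with the immediate early covariate. Rab5a made up 36.6%, 38.1% and 40.4% of the summed CPM of the 3 genes in knockout 11, 12 and 13 and 33.8%, 32.2% and 31.8% in floxed 8, 18 and 19, each knockout library above each floxed library.

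Rab21, which carries integrins through early endosomes, had 23.1, 25.6 and 23.6 CPM in knockout mice 11, 12 and 13, against 29.5, 24.8 and 27.1 CPM in floxed mice 8, 18 and 19. Floxed 18 was below knockout 12, so the groups overlapped (log2 ratio -0.17, SE 0.098, edgeR adjusted p = 0.416). The value was -0.11 without floxed 8, -0.41 with the acinar covariate (edgeR adjusted p = 0.498) and -0.34 with the immediate early covariate (edgeR adjusted p = 0.195). Rab22a, Rab24 and Rab31 had log2 fold changes from -0.13 (Rab24) to -0.054 (Rab31). For Rab24, 62.4% of the exons are shared with Prelid1 on the opposite strand.

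The log2 fold changes of the 7 recycling endosome Rabs ran from -0.15 to 0.022 (median -0.071), 0 had an unadjusted edgeR p below 0.05, and the groups overlapped in each of the 7. Several values were larger in size with covariates, and their standard errors were wider. With the acinar covariate Rab25 was -0.37, Rab4b -0.32 and Rab35 -0.31, and with the immediate early covariate Rab25 was -0.29, Rab4b -0.23 and Rab35 -0.32 (edgeR adjusted p from 0.194 to 0.636 over these 6 values). Without floxed 8 they were -0.099, -0.11 and 0.011. Rab25, an epithelial member of the Rab11 group, was highest per length at 19.5 CPM per kilobase, with 33.7, 29.8 and 29.4 CPM in knockout mice 11, 12 and 13, against 37.1, 31.1 and 35.0 CPM in floxed mice 8, 18 and 19. Rab11a and Rab11b, which return receptors to the cell surface, had values of -0.071 and 0.011, each with an interval inside -0.5 to 0.5. Rab4a and Rab4b, of fast recycling, and Rab14 and Rab35 made up the rest, and 65.0% of the exons of Rab4b are shared with a same-strand gene, Gm21983.

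Of the 4 late endosome and lysosome Rabs, Rab29 and Rab9 leaned higher, and Rab7 and Rab12 had values of -0.035 and -0.071. Rab29, which recruits the kinase LRRK2 to membranes, had 2.40, 1.52 and 1.39 CPM in knockout mice 11, 12 and 13, against 1.10, 1.152 and 1.07 CPM in floxed mice 8, 18 and 19. All knockout libraries were above all floxed libraries, with knockout 11 highest. The log2 ratio of knockout to floxed was 0.67 (SE 0.30, edgeR adjusted p = 0.279, alternatives 0.177 to 0.643), and without floxed 8 it was 0.66 (adjusted p = 0.229). Without knockout 11 it was 0.39. With 19 to 42 counts per library, this gene is the least precisely measured after Rab26 by its standard error.

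Rab9, which returns mannose 6-phosphate receptors from late endosomes to the Golgi, had 15.3, 15.7 and 17.1 CPM in knockout mice 11, 12 and 13, against 15.8, 12.3 and 12.1 CPM in floxed mice 8, 18 and 19. Floxed 8 lay among the knockout libraries (log2 ratio 0.26, SE 0.13, edgeR adjusted p = 0.335, alternatives 0.0298 to 0.921). Without floxed 8 Rab9 rose by 0.39 (adjusted p = 0.0359), and with covariates the value was -0.081 (acinar) and -0.062 (immediate early). Rab7 had 281, 257 and 274 CPM in the knockout mice, against 311, 259 and 262 CPM in the floxed mice. Its log2 fold change of -0.035 had a SE of 0.12 and an edgeR adjusted p of 0.911, and it was 0.051 without floxed 8. It was -0.27 with the acinar covariate and -0.25 with the immediate early covariate (edgeR adjusted p = 0.661 and 0.336).

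Rabs of the plasma membrane and secretory vesicles numbered 6. Rab8a, which delivers vesicles to the cell surface and to the primary cilium, had 45.6, 46.3 and 43.5 CPM in knockout mice 11, 12 and 13, against 54.7, 51.9 and 57.0 CPM in floxed mice 8, 18 and 19. The groups were separate and floxed 8 stood with its own group. The log2 ratio of knockout to floxed was -0.27 (SE 0.081) with a 95% interval from -0.46 to -0.089 (edgeR adjusted p = 0.137, range over the alternatives 0.0294 to 0.516). Rab8a fell by 0.28 without floxed 8 (adjusted p = 0.0457), where its unadjusted edgeR p was 0.0061, against 0.0084 with all libraries. The value was -0.35 with the acinar level as a covariate (adjusted p = 0.516). It lies on chromosome 8 from 72161200 to 72181366, with no exon shared with another annotated gene. Its relative Rab8b had 6.97, 11.2 and 7.51 CPM in the knockout mice, against 7.46, 7.59 and 7.33 CPM in the floxed mice, where knockout 12 alone was high, and without knockout 12 its log2 fold change of 0.20 was -0.043.

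Rab26, known from zymogen granule maturation in acinar cells, had 1.599, 2.69 and 3.34 CPM in knockout mice 11, 12 and 13, against 1.56, 1.68 and 2.04 CPM in floxed mice 8, 18 and 19. Knockout 11 lay among the floxed libraries (log2 ratio 0.53, SE 0.30, edgeR adjusted p = 0.394). The acinar markers held 14.01%, 17.1% and 19.7% of counts in knockout 11, 12 and 13 and 9.40%, 3.14% and 6.31% in floxed 8, 18 and 19. Rab26 and the acinar share ranked the knockout libraries in the same order. In the floxed group floxed 8 had the highest acinar share and the lowest Rab26. A link between them was not tested. With the acinar covariate Rab26 was 0.39 (SE 0.64), and without knockout 13 it was 0.29. Rab10, which moves glucose transporter vesicles in adipocytes, had 84.6, 86.9 and 83.1 CPM in the knockout mice, against 84.5, 76.3 and 80.5 CPM in the floxed mice (log2 fold change 0.078, edgeR adjusted p = 0.657). Rab13, a Rab of tight junctions, and Rab37, a Rab of secretory vesicles, had log2 fold changes of -0.057 and -0.13.

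The remaining 4 genes act at cilia or in ubiquitin ligases. Rab40c, a Rab with a SOCS box that binds cullin-based ubiquitin ligases, had 16.6, 16.7 and 14.7 CPM in knockout mice 11, 12 and 13, against 14.6, 11.9 and 13.8 CPM in floxed mice 8, 18 and 19. The groups only just separated (log2 ratio 0.25, SE 0.12, edgeR adjusted p = 0.303), and the value was 0.31 without floxed 8 (edgeR adjusted p = 0.107) and -0.0023 with the acinar covariate. Rab28, a ciliary Rab, had 29.4, 27.2 and 27.0 CPM in the knockout mice, against 31.3, 26.5 and 29.2 CPM in the floxed mice, with overlap. Its log2 value of -0.056 was -0.27 with the acinar and -0.20 with the immediate early covariate. Rab23, a brake on hedgehog signalling, and Rab40b, a relative of Rab40c, had values of -0.093 and -0.11.

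**Figure D4:**
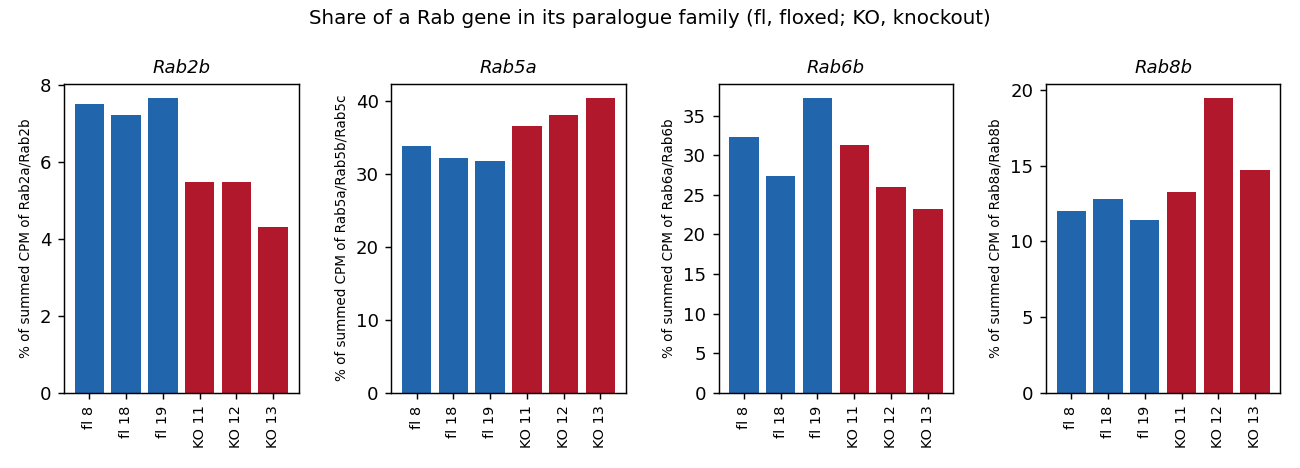
Share of 4 Rab genes in the summed TMM-scaled CPM of their own paralogues, as a bar for each mouse (floxed in blue, knockout in red). The Rab2b share is lower and the Rab5a share higher in every knockout mouse. The Rab8b share is also higher in each knockout mouse, most of all in knockout 12 at 19.4%, and the Rab6b shares overlap.

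Among the families compared by share, the groups were separate for Rab2a and Rab2b, for Rab5a and Rab5c, and for Rab8a and Rab8b. Rab8b made up 13.2%, 19.4% and 14.7% of its pair in knockout 11, 12 and 13 and 12.0%, 12.8% and 11.4% in floxed 8, 18 and 19. Knockout 11 was close to floxed 18. The shares overlapped for Rab1a and Rab1b, Rab4a and Rab4b, Rab6a and Rab6b, Rab11a and Rab11b, and Rab22a and Rab31. Rab1a, for example, made up 62.9 ± 1.98% of its pair with the knockout (SD, n = 3) and 62.7 ± 1.78% without it (SD, n = 3).

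The genes that load, anchor, switch off and read Rabs were listed in 6 groups. The lists were chosen with earlier results of these data known, so their shares and medians are descriptions and not set tests. Of the listed genes 136 were tested. With all 6 libraries 0 of them passed (edgeR, against 0.406% of all genes), 21 had an unadjusted p below 0.05 (15.4%, against 17.9% of all genes), DESeq2 called 2 and limma-voom 0. The groups did not overlap in 30 of the 136 (22.1%, against 24.3% of all genes), 23 higher and 7 lower in knockout islets. Without floxed 8, 17 passed, 9 higher and 8 lower (against 14.3% of all genes, 8.59% higher and 5.70% lower). Of 39 effectors 33 were positive, with a median log2 fold change of 0.13, and 12 did not overlap between groups, each higher in knockout islets (30.8%, all genes 14.1% in that direction). Bicd1, a dynein adaptor that Rab6 recruits, had 27.3, 28.9 and 29.1 CPM in knockout mice 11, 12 and 13, against 21.8, 20.3 and 19.9 CPM in floxed mice 8, 18 and 19 (log2 ratio 0.46, SE 0.087, edgeR adjusted p = 0.0670, alternatives 0.00325 to 0.530). The groups were well apart, floxed 8 included, and without floxed 8 Bicd1 rose by 0.50 (adjusted p = 0.00444). Rbsn, a Rab5 effector, and Rab11fip1, a Rab11 effector, had values of 0.31 and 0.40 (edgeR adjusted p = 0.162 and 0.178). Without floxed 8, 30 of 39 effectors were positive (median 0.086), 5 rose and 1 fell, where 8.59% of all genes rose and 5.70% fell.

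TRAPP subunits, parts of the complexes that load Rab1 and Rab11 with GTP, lay the other way. Of 14 tested, 10 were negative, the median log2 fold change was -0.14, and 7 did not overlap between groups, 2 higher and 5 lower in knockout islets (all genes 14.1% and 10.2%). Trappc1 had 32.5, 25.3 and 24.7 CPM in knockout mice 11, 12 and 13, against 42.3, 37.9 and 37.0 CPM in floxed mice 8, 18 and 19 (log2 ratio -0.51, SE 0.12, edgeR adjusted p = 0.0938, alternatives 0.0126 to 0.478). Trappc4 and Trappc2l had values of -0.52 and -0.32 (edgeR adjusted p = 0.154 and 0.161). Without floxed 8 Trappc1 and Trappc4 fell, by 0.45 and 0.61 (edgeR adjusted p = 0.0321 and 0.0383), and 0 of the 14 subunits rose (all genes 5.70% and 8.59%). Over the alternatives the adjusted p of Trappc4 ran from 0.0188 to 0.900. Without floxed 8, 11 of the 14 were negative (median -0.12).

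**Figure D5:**
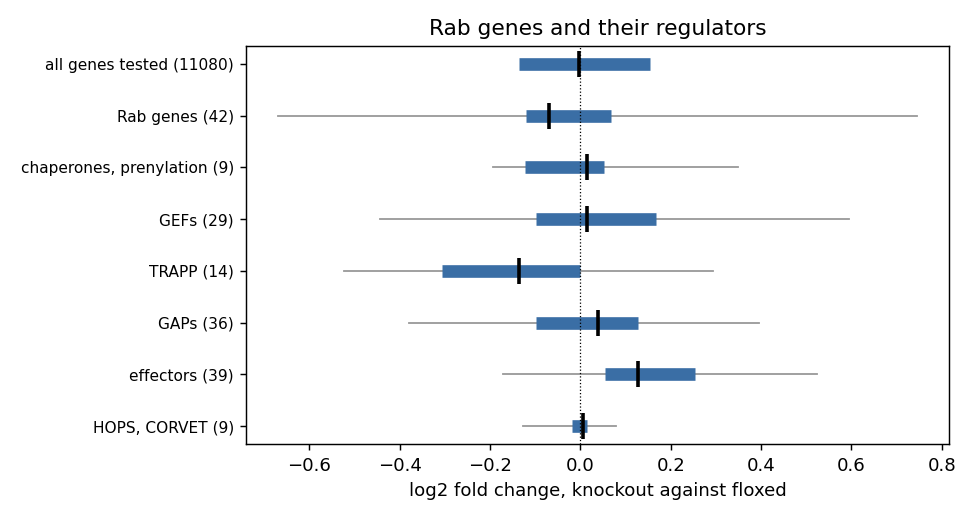
Log2 fold change, knockout against floxed, of the 42 Rab genes and of 6 lists of their regulators, with the number of tested genes in brackets. The black tick is the median, the blue bar the interquartile range and the grey line the full range (not drawn for all genes tested), and effectors lie to the right with a median of 0.13 and TRAPP subunits to the left with -0.14.

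The 29 exchange factors had a median log2 fold change of 0.014 and the 36 GAPs one of 0.038, with 4 and 3 members at an unadjusted edgeR p below 0.05. The groups did not overlap in 6 exchange factors (20.7%) and 4 GAPs (11.1%), against 24.3% of all genes. The same held for 1 chaperone or prenylation gene (11.1%) and 0 HOPS and CORVET subunits. Among exchange factors, Dennd5b had a value of 0.45, Dennd2d one of -0.44, and Ric1, part of the Rab6 exchange factor, one of 0.59 (edgeR adjusted p = 0.110, 0.154 and 0.166). Without floxed 8 Dennd5b rose by 0.50 and Dennd2d fell by 0.57 (edgeR adjusted p = 0.0231 and 0.00660), and the value of Ric1 was 0.41 (edgeR adjusted p = 0.0738). Over the alternatives the adjusted p of Dennd5b ran from 0.0104 to 0.638, and the log2 value of Dennd2d ran from -0.58 to 0.091 (adjusted p from 0.00660 to 0.890). Among GAPs, Usp6nl, which acts on Rab5, had a value of 0.40, Rabgap1l one of 0.24 and Tbc1d8 one of -0.38 (edgeR adjusted p = 0.131, 0.214 and 0.250). Tbc1d8 had 21.6 CPM in floxed 8, level with the knockout libraries at 22.2, 21.5 and 23.3 CPM, and 31.8 and 33.7 CPM in floxed 18 and 19. Usp6nl rose by 0.41 and Tbc1d8 fell by 0.56 without floxed 8 (edgeR adjusted p = 0.0460 and 0.00225). Over the alternatives the adjusted p of Usp6nl ran from 0.0235 to 0.535, and the log2 value of Tbc1d8 ran from -0.56 to 0.17 (adjusted p from 0.00225 to 0.933).

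Of 9 chaperones and prenylation genes, Pggt1b, a subunit of a related prenyl transferase, had the smallest p, with 12.8, 12.4 and 13.2 CPM in knockout mice 11, 12 and 13, against 9.89, 10.3 and 9.93 CPM in floxed mice 8, 18 and 19 (log2 ratio 0.35, SE 0.11, edgeR adjusted p = 0.143). The groups were well apart. Arl6ip5, of the prenylated Rab acceptor family, had a value of -0.19 (edgeR adjusted p = 0.361), and -0.26 without floxed 8 (adjusted p = 0.0687, alternatives 0.0606 to 0.981). Rabggtb, the catalytic subunit of Rab geranylgeranyl transferase, had a value of 0.22 (edgeR adjusted p = 0.412), and 0.36 without floxed 8, where it rose (adjusted p = 0.0274). Floxed 8 was the highest library of all for Rabggtb, at 31.2 CPM. The gene had 31.1, 30.1 and 29.9 CPM in knockout 11, 12 and 13, and 21.9 and 25.1 CPM in floxed 18 and 19. Its log2 value ran from -0.24 to 0.36 over the alternatives, with an adjusted p from 0.0274 to 0.748. The 9 subunits of HOPS and CORVET, the tethers of Rab7 and Rab5, had a median of 0.0056 and values from -0.13 (Vps16) to 0.080 (Vps33a), with Vps41 at -0.039, with 0 at an unadjusted edgeR p below 0.05 and 0 called by edgeR with or without floxed 8.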

How the data were processed

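RNA was measured in islets of 6 mice, 3 knockout and 3 floxed. The authors deposited a table of estimated counts without normalization. Fastp, HISAT2, StringTie and the mm10 build are named per the submitters' processing notes, while versions, the counting rule and strand use are not given in the sources used. Of the value columns 0 were left without a sample. Counts were rounded to whole numbers (3 Rab genes had decimals). Genes were kept by filterByExpr (minimum count 10, minimum total 15), which left 11080 of 11106. They were scaled by TMM and tested by robust quasi-likelihood F tests in edgeR 4.0.16 (R 4.3.3), with Benjamini-Hochberg adjustment over all genes tested and a threshold of 0.05. Standard errors come from the F statistic and intervals are at 95%. Alternatives used DESeq2 1.42.0 and limma 3.58.1. List means for covariates are log2 CPM with a prior count of 2.

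The groups share no animal numbers, and with no litter or batch label such effects cannot be told apart from the groups. Each pair of replicates differed beyond counting error, with a mean chi-square of 20.3 or more over genes. The members and lists were chosen with earlier results of these data known, so no list was tested as a set. Described in full were the 14 members with the smallest unadjusted p, the highest per length in each role list and their paralogues, 22 in all. In each regulator list the 3 smallest p were named. Merged exon lengths and overlaps come from GENCODE M21 (GRCm38, the assembly of mm10) and gene positions from RefSeq GRCm38.p6. Exons of 17 members overlap those of other genes. Overlaps of the regulators were not checked.

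The fit was tested on data simulated for this comparison (11073 genes tested). The share recovered was 87% for 100 genes with a true log2 change of 1 and 98% for 100 with one of 2. Recovery was not measured for smaller changes, and the log2 fold changes of the 42 Rab genes ran from -0.67 to 0.74. These shares therefore do not tell how often changes of the size seen in the Rab genes would be found. Of 202 calls 17 were of unchanged genes, a larger share than the threshold aims at.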

Additional observations from a re-analysis of the deposited data

How the results depend on the processing

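No paired analysis was possible because the groups share no replicate numbers. Of 18 alternatives, several left out libraries. The count of 45 called genes over the whole table was 564 with DESeq2, 1671 with limma-voom and quality weights, 0 with the acinar covariate and 100 with the immediate early covariate, 1393 without both knockout 12 and floxed 8, and from 0 to 1584 with single libraries left out. The count of called Rab genes, 0, was 1, 5 and 3 with DESeq2, quality weights and without both libraries, and from 0 to 5 with single libraries left out, where only the fit without floxed 8 gave any. The regulators' count, 0, was 2, 15 and 11 in the same 3 settings and from 0 to 17 with single libraries left out. The Rab median was -0.16 with library totals, where the median of all genes was -0.092, and -0.13 with the acinar level. Of 396 values for single named Rab genes under an alternative, 366 kept direction and side of the threshold, 14 passed it and 16 changed sign. With the acinar level the values that changed sign were Rab20 -0.038, Rab40c -0.0023, Rab9 -0.081, Rab43 -0.21 and Rab10 -0.057. With the immediate early level they were Rab9 -0.062, Rab43 -0.030 and Rab10 -0.020. Rab10 was -0.0074 with library totals and Rab7 0.034 with quality weights. Without both libraries Rab28 was 0.0092, Rab7 0.082 and Rab8b -0.054. With single libraries left out Rab7 ran from -0.082 to 0.051 and Rab8b from -0.043 to 0.32. The cause of these changes was not tested. With 3 mice a group, the depth of the lowest genes (Rab29, Rab26) limits what could be seen.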
